A study of Homo sapiens with 3 samples.

Results

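The 42 genes described here carry out homologous recombination and the Fanconi anaemia pathway of DNA repair. They are genes named for their function in double-strand break and interstrand crosslink repair, and the rule uses no measured value. They were nonetheless chosen with earlier results of these data known. MRE11, also called MRE11A, is listed under its current symbol. All 42 were found through their Entrez identifiers among the 18331 identifiers of the deposited tables, and all 42 passed the filter on low counts that left 14016 genes tested. The values come from PC-3 cells, an established prostate cancer line grown from a metastasis and known for lacking functional p53. The groups were 2 libraries labelled KMT2D shRNA, in which KMT2D, a histone H3 lysine 4 methyltransferase of enhancers, was targeted by a lentiviral short hairpin, and 1 library labelled control shRNA. Both groups were PC-3 cells given an shRNA lentivirus and sequenced after 7 days. The labels do not say whether the 2 KMT2D shRNA libraries carry different hairpins or come from separate cultures, so the spread between them may be technical. Nor do they say whether cells that took up the virus were selected.

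Homologous recombination repairs a broken chromosome by copying the sister chromatid. The MRE11, RAD50 and NBN complex binds the broken ends and, with RBBP8 (CtIP) and EXO1, trims one strand. ATM and ATR signal the damage, the BRCA1 and BRCA2 complexes prepare the exposed strand for pairing, and the strand exchange factors and RAD54 proteins help it invade its partner. The Fanconi core complex monoubiquitinates FANCD2 and FANCI at DNA crosslinks, which are then cut open and repaired by recombination. Many of these genes are transcribed mainly in S and G2 phase, when a sister chromatid is present.

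The libraries held 5157550 and 5123817 estimated reads in the KMT2D shRNA libraries and 5559504 in the control. KMT2D itself was at 107 and 138 CPM, counts scaled by TMM-adjusted library totals, in the libraries labelled KMT2D shRNA and at 100.1 CPM in the control, with a log2 fold change of 0.29 ± 0.18 (SE, adjusted p = 0.227 in edgeR). The value depends on transcript length: with the trend of fold change on length removed, as described further on, it was -0.58 (adjusted p = 0.0146 in edgeR), and with a trend on GC content removed as well it was -0.43 (adjusted p = 0.0853). The targeted transcript thus lay above the control as measured and below it on those scales, and each direction given below is that of the libraries labelled KMT2D shRNA. The epithelial keratins KRT8 and KRT18 were abundant, at 104.8 or more in every library on the FPKM scale, which divides by transcript length and library total. KLK3, a luminal prostate gene, was listed in no library. Markers of other cells were low or unlisted in all libraries, apart from COL1A1: the T cell gene CD3E and the endothelial gene CDH5 were listed in none, the leukocyte gene PTPRC was at or under 1.47 FPKM, the endothelial gene PECAM1 at or under 2.90 FPKM and the mural and fibroblast gene PDGFRB at or under 0.27 FPKM. COL1A1, a collagen gene of fibroblasts, was at 63.2 and 63.7 FPKM in the KMT2D shRNA libraries and at 65.6 FPKM in the control. All 24 genes of an interferon response list fell, with a summed level of 1161 and 1166.5 CPM in the KMT2D shRNA libraries and 19541 CPM in the control. Of 22 G2/M genes, 18 rose (81.8%, against 16.5% of tested genes) and none fell. Their summed level was 2216.5 and 2088.4 CPM in the KMT2D shRNA libraries and 1211.7 CPM in the control. Of 22 G1/S genes, 5 rose (22.7%, against 16.5%) and 2 fell (9.09%, against 14.5% of tested genes). The part of these 2 differences in the repair gene values was not tested. In bulk RNA, fewer cells in a state and less RNA per cell cannot be told apart.

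Of the 42 repair genes, 11 rose and 2 fell in the libraries labelled KMT2D shRNA, at an adjusted p of 0.05 over all 14016 genes (edgeR's quasi-likelihood test with Benjamini-Hochberg adjustment). That is 26.2% of them higher, against 16.5% of all tested genes, and 4.76% lower, against 14.5% of all tested genes. The genes that rose were the end sensors RAD50 and MRE11, the kinases ATM, ATR and CHEK1, the mediators MDC1 and TP53BP1, the tumour suppressors BARD1 and BRCA2, the strand exchange factor XRCC2 and the Fanconi translocase FANCM. ATRIP, the partner of ATR, and XRCC3, another strand exchange factor, fell. The median log2 fold change of the 42 genes was 0.28, against -0.01 over all tested genes, and it was 0.31 and 0.26 in KMT2D shRNA libraries 1 and 2 taken singly against the control. Since 1 control library stands against both, the test draws its spread from the KMT2D shRNA libraries and from all genes together. Another 6 members had an unadjusted p under 0.05 without passing the adjustment, which makes 19 in all. The share of all tested genes at such an unadjusted p was not counted, so the 19 cannot be set against it.

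Both KMT2D shRNA libraries lay above the control for 30 of the 42 genes (71.4%, against 41.5% of tested genes) and below it for 7 (16.7%, against 42.8%). The other 5 genes, RAD52, FANCC, FANCG, FANCL and MUS81, lay on opposite sides in the 2 libraries. With an exact 95% interval on each library's ratio to the control, which covers counting error only, both intervals lay above 1 for 15 genes (35.7%, against 22.4% of tested genes) and below 1 for 2 genes (4.76%, against 20.6%). The 2 KMT2D shRNA libraries differed from each other beyond counting error in 4 genes, BARD1, BLM, FANCL and MUS81, a share of 9.52% against 23.2% of tested genes.

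**Figure D1:**
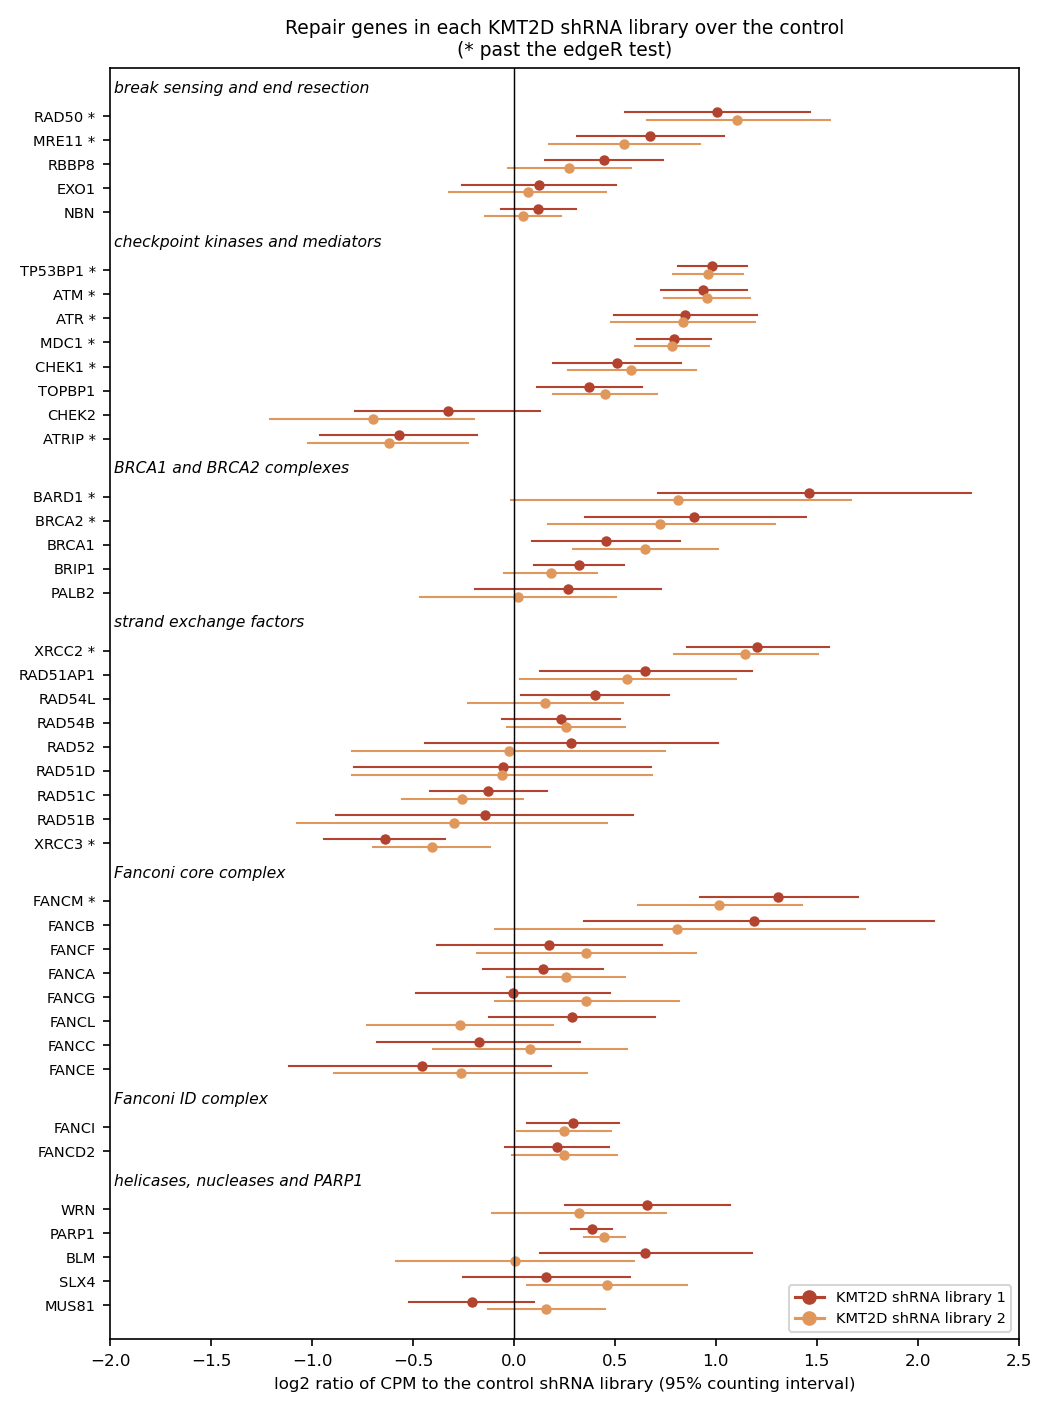
The plot shows, for each of the 42 repair genes by role, the ratio of each KMT2D shRNA library to the control on a log2 axis, with bars for the exact 95% counting interval. The points of XRCC2, FANCM, RAD50, ATM and TP53BP1 lie near or above 2 times the control in both libraries, while those of ATRIP and XRCC3 lie below the control in both.

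Levels per transcript length were spread over a wide range. PARP1, which binds broken DNA and synthesises poly(ADP-ribose), had the highest FPKM in each library, at 84.4 and 86.0 in the KMT2D shRNA libraries and 62.9 in the control. RAD51C, a subunit shared by several recombination complexes, followed at 28.4 and 25.4 FPKM in the KMT2D shRNA libraries and 30.2 FPKM in the control. BRCA2 was lowest of the 42 in all 3 libraries, at 1.37 and 1.19 FPKM in the KMT2D shRNA libraries and 0.72 FPKM in the control. FANCB, a subunit of the Fanconi core complex, was next to lowest, at 2.51 and 1.88 FPKM against 1.07 FPKM in the control. Counts behind these values ran from 18 to 1774 estimated reads per gene and library, and the standard errors of the log2 fold changes from 0.17 to 0.45.

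Promoters of 3 of the members called are shown here because they hold letters of the E2F site, which marks many genes of DNA replication and recombination. The sequences are RefSeq's, on GRCh38.p14, and run 5′ to 3′ from 250 bases before the start of the gene to 50 after it, with the matching letters in capitals. XRCC2 lies at chr7:152676092-152676391, BARD1 at chr2:214809634-214809933 and XRCC3 at chr14:103715402-103715701, all on the minus strand. The capitals in each are the reverse complement of TTCCCGC and begin at base 22 after the start in XRCC2, at base 5 after it in BARD1 and at position -2 in XRCC3.
XRCC2: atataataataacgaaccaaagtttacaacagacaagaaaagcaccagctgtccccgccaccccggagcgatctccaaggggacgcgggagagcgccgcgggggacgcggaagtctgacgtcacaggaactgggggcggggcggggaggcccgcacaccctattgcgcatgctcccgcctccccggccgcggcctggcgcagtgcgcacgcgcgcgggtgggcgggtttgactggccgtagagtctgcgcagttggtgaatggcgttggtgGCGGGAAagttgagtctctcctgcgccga
BARD1: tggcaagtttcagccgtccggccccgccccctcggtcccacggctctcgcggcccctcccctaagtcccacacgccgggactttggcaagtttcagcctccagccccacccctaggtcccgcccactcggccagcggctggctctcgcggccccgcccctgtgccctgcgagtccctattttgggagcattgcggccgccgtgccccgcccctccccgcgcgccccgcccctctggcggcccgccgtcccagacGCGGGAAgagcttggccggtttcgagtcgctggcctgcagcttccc
XRCC3: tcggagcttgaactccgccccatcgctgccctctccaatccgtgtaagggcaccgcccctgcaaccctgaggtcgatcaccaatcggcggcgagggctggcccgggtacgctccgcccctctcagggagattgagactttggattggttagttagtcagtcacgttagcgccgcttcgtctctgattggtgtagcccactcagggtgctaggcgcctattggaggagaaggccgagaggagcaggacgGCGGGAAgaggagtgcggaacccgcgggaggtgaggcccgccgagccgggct
RefSeq promoters were found for 38 of the 42 members, 51 promoters in all, since 12 members have several. NBN, RAD54B, FANCI and WRN were not matched. The E2F letters searched on both strands were TTTCGCG, or in their place TTTGGCG, or else the form TTCCCGC. Any of them was in a promoter of 19 of the 38 members, against 17.9% of 11090 tested genes with a promoter. Of the 11 members that rose, XRCC2 and BARD1 held them (18.2%), as did XRCC3 of the 2 that fell. The other 16 members with a match were not past the test in either direction. The CCAAT box bound by NF-Y was in 18 members (47.4%, against 43.1% of tested genes). It was in 6 of the 11 that rose (54.5%) and in both of the 2 that fell. The letters TTTGAA of the cell cycle homology region were in 4 members (10.5%, against 13.6%). A match describes letters in a window and does not show that a factor binds there.

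Among the 5 genes that sense and trim broken ends, 2 rose (40%, against 16.5% of tested genes) and none fell. Their median log2 fold change was 0.36, and none of them passed with the length trend removed. RAD50, the ATPase arm that tethers the ends, was at 22.9 and 24.6 CPM in the KMT2D shRNA libraries and at 11.4 CPM in the control. The difference came to a log2 fold change of 1.05 ± 0.25 (SE, adjusted p = 0.00101 in edgeR). MRE11, the nuclease of the same complex, was at 31.0 and 28.4 CPM in the KMT2D shRNA libraries and at 19.4 CPM in the control, a log2 fold change of 0.61 ± 0.22 (SE, adjusted p = 0.0335 in edgeR). Both KMT2D shRNA libraries lay above the control for each of these 2 genes. NBN, the subunit that recruits ATM, had 94.2 and 89.3 CPM in the KMT2D shRNA libraries and 86.6 CPM in the control, so that its 3 libraries lay close together and its log2 fold change of 0.08 (SE 0.18) did not pass (edgeR adjusted p = 0.761). The resection factors RBBP8 and EXO1 had log2 fold changes of 0.36 and 0.10 and did not pass either.

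Of the 8 checkpoint genes, 5 rose (62.5%, against 16.5% of tested genes) and 1 fell (12.5%, against 14.5%). Their median log2 fold change was 0.67. With the length trend removed, 1 of the 8 rose (12.5%, against 9.94% of tested genes), none fell and the median was 0.26. ATM, the kinase activated by double-strand breaks, was at 99.2 and 101 CPM in the KMT2D shRNA libraries and at 51.8 CPM in the control. ATR, the kinase activated by single-stranded DNA, was at 35.0 and 34.7 CPM in the KMT2D shRNA libraries and at 19.4 CPM in the control. The 2 KMT2D shRNA libraries nearly coincided for both kinases, with log2 fold changes of 0.95 ± 0.18 for ATM (SE, adjusted p = 8.17e-05 in edgeR) and 0.84 ± 0.22 for ATR (SE, adjusted p = 0.00299 in edgeR). MDC1, which binds phosphorylated histone H2AX beside a break, was at 126 and 125 CPM in the KMT2D shRNA libraries and at 72.7 CPM in the control (log2 fold change 0.79 ± 0.18 SE, adjusted p = 0.00069 in edgeR). TP53BP1, which shields ends from resection and so favours end joining, was at 155 and 153 CPM in the KMT2D shRNA libraries and at 78.5 CPM in the control. Its log2 fold change of 0.97 ± 0.18 (SE, adjusted p = 4.22e-05 in edgeR) had the smallest adjusted p of the 42 genes. TUBGCP4, a gene of the gamma-tubulin complex that overlaps TP53BP1, also had a log2 fold change of 0.97 (edgeR adjusted p = 0.000101). No step that marks strand is stated, so reads in the overlap cannot be told apart. The same holds for MRE11 with ANKRD49 and for XRCC3 with KLC1. CHEK1, the kinase downstream of ATR, was at 37.5 and 39.4 CPM in the KMT2D shRNA libraries and at 26.3 CPM in the control (log2 fold change 0.54 ± 0.21 SE, adjusted p = 0.0437 in edgeR).

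ATRIP ran the other way from its partner ATR, with 17.8 and 17.1 CPM in the KMT2D shRNA libraries and 26.3 CPM in the control. Both libraries lay below the control, and the log2 fold change was -0.59 ± 0.22 (SE, adjusted p = 0.038 in edgeR). The gene overlaps TREX1, an exonuclease that degrades cytosolic DNA. TREX1 was at 5.16 and 8.28 CPM in the KMT2D shRNA libraries and at 40.7 CPM in the control (log2 fold change -2.60 ± 0.25 SE, adjusted p = 7.58e-12 in edgeR). TREX1 and the other overlapping genes were looked up after the members' values were seen. The estimated ATRIP reads were 93 and 87 in the KMT2D shRNA libraries and 144.64, not a whole number, in the control. The part of TREX1 reads in the ATRIP value was not tested. CHEK2 and TOPBP1 did not pass, at log2 fold changes of -0.50 and 0.41.

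BARD1 and BRCA2 rose among the 5 genes of the BRCA1 and BRCA2 complexes (40%, against 16.5% of tested genes), and none fell. The median log2 fold change of the 5 was 0.56, and BARD1 alone passed with the length trend removed. BARD1, the partner of BRCA1 in a ubiquitin ligase, was at 10.5 and 6.70 CPM in the KMT2D shRNA libraries and at 3.81 CPM in the control, from 55, 34 and 21 reads. Its log2 fold change was 1.17 ± 0.41 (SE, adjusted p = 0.0254 in edgeR). The libraries did not coincide: the ratio to the control was 2.76 in library 1 (exact 95% counting interval 1.64 to 4.80) and 1.76 in library 2 (0.991 to 3.19), and the second interval includes 1. BRCA2, which acts on resected single-stranded DNA, was at 15.5 and 13.8 CPM in the KMT2D shRNA libraries and at 8.36 CPM in the control (log2 fold change 0.81 ± 0.30 SE, adjusted p = 0.0361 in edgeR). BRCA1 was at 27.9 and 31.9 CPM in the KMT2D shRNA libraries and at 20.3 CPM in the control, with both libraries above the control, and its log2 fold change of 0.56 (SE 0.22) missed the threshold at an edgeR adjusted p of 0.0526. The mean transcript length the authors gave to BRCA1 differed by library, at 6282 and 5690 bases in the KMT2D shRNA libraries and 5023 bases in the control. Its FPKM values were 4.47 and 5.52 in the KMT2D shRNA libraries and 3.97 in the control, so both libraries were closer to the control on that scale than in CPM. PALB2, the bridge between BRCA1 and BRCA2, and the helicase BRIP1 had log2 fold changes of 0.15 and 0.25 and did not pass.

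**Figure D2:**
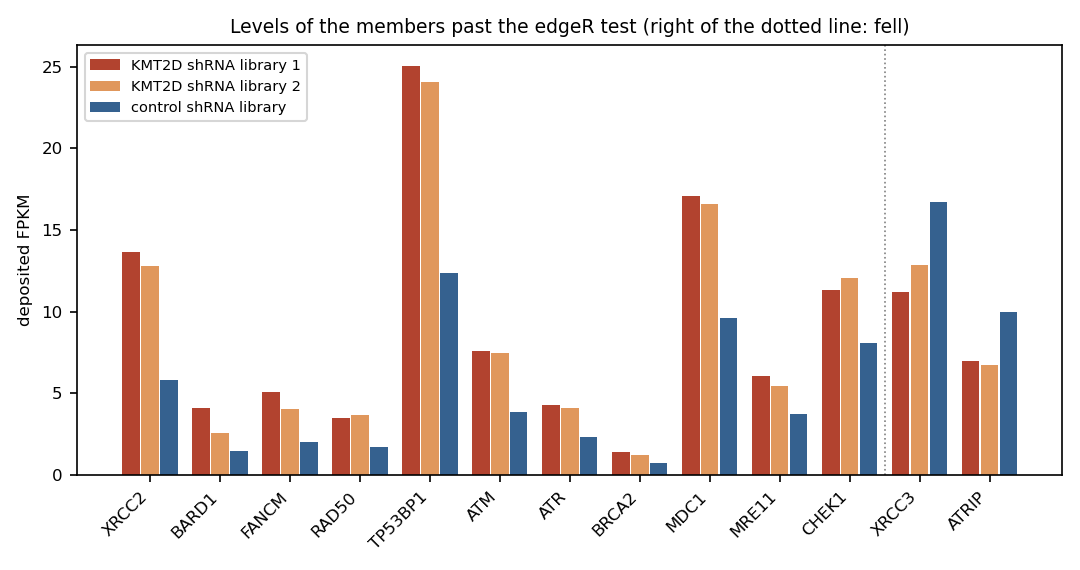
The plot shows the FPKM of the 13 repair genes past the test as bars for each of the 3 libraries, on a linear axis. The 2 KMT2D shRNA bars are higher than the control bar for the 11 genes that rose and lower for ATRIP and XRCC3. Those that rose run from BRCA2 at 1.37 and 1.19 against 0.72 to TP53BP1 at 25.1 and 24.1 against 12.4.

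Of the 9 strand exchange genes, 1 rose (11.1%, against 16.5% of tested genes) and 1 fell (11.1%, against 14.5%). Their median log2 fold change was 0.14. XRCC2, which acts in a complex with RAD51B, RAD51C and RAD51D, was at 41.9 and 40.2 CPM in the KMT2D shRNA libraries and at 18.2 CPM in the control. Both libraries were more than 2 times the control, with ratios of 2.30 (exact 95% counting interval 1.81 to 2.95) and 2.21 (1.73 to 2.84), and the log2 fold change was 1.17 ± 0.22 (SE, adjusted p = 5.29e-05 in edgeR). XRCC3, which pairs with RAD51C in a second complex, was at 28.7 and 33.7 CPM in the KMT2D shRNA libraries and at 44.7 CPM in the control. Its log2 fold change was -0.52 ± 0.20 (SE, adjusted p = 0.0431 in edgeR). Thus the 2 called genes, which act in different complexes, had opposite signs, while the 3 complex partners of XRCC2 did not pass: RAD51B, RAD51C and RAD51D had log2 fold changes of -0.22, -0.19 and -0.06. RAD51AP1, which stimulates strand invasion, was at 15.1 and 14.2 CPM in the KMT2D shRNA libraries and at 9.63 CPM in the control (log2 fold change 0.60 ± 0.29 SE, adjusted p = 0.111 in edgeR). The annealing protein RAD52 and the translocases RAD54L and RAD54B had log2 fold changes of 0.14, 0.28 and 0.24, and none passed.

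FANCM was the 1 gene of 8 that rose in the Fanconi core complex (12.5%, against 16.5% of tested genes), and none fell. The median log2 fold change of the 8 was 0.19. FANCM, a DNA translocase that anchors the complex at stalled forks, was at 35.9 and 29.4 CPM in the KMT2D shRNA libraries and at 14.5 CPM in the control. Both libraries were at or above 2 times the control, and the log2 fold change was 1.17 ± 0.24 (SE, adjusted p = 0.000142 in edgeR). FANCB was at 7.45 and 5.71 CPM in the KMT2D shRNA libraries and at 3.27 CPM in the control, from 39, 29 and 18 reads, and its log2 fold change of 1.01 (SE 0.45) did not pass at this depth (edgeR adjusted p = 0.0828). FANCL, the ubiquitin ligase subunit, was at 20.8 and 14.2 CPM in the KMT2D shRNA libraries, 1 above and 1 below the 17.1 CPM of the control. The 2 libraries differed from each other by a ratio of 1.47 (exact 95% counting interval 1.08 to 2.01). The remaining subunits FANCA, FANCC, FANCE, FANCF and FANCG had log2 fold changes between -0.36 and 0.27 and did not pass.

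The substrates of the core complex did not pass. FANCD2 was at 50.5 and 51.8 CPM in the KMT2D shRNA libraries and at 43.6 CPM in the control (log2 fold change 0.23 ± 0.19 SE, adjusted p = 0.375 in edgeR), and FANCI had a log2 fold change of 0.27 ± 0.18 (SE, adjusted p = 0.272 in edgeR). None of the 5 helicases, nucleases and PARP1 passed either, against 16.5% of tested genes that rose and 14.5% that fell. Their median log2 fold change was 0.36. PARP1 was at 335 and 350 CPM in the KMT2D shRNA libraries and at 256 CPM in the control, with both libraries above the control beyond counting error, and its log2 fold change of 0.42 (SE 0.17) had an edgeR adjusted p of 0.0543. BLM, a helicase that dissolves joined chromosomes, was at 15.1 and 9.66 CPM in the KMT2D shRNA libraries and at 9.63 CPM in the control, so that 1 library stood apart and the other matched the control. WRN, a related helicase, and the nuclease scaffold SLX4 had log2 fold changes of 0.50 and 0.32. The nuclease MUS81 lay on both sides of its 35.8 CPM in the control, at 31.0 and 40.0 CPM in the KMT2D shRNA libraries.

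Longer transcripts had higher fold changes in these libraries, among the repair genes and across the transcriptome. Spearman's rho between log2 fold change and length was 0.57 over the 42 members and 0.47 over all tested genes, where all points share the same 3 libraries. It was 0.51 and 0.61 over the members in KMT2D shRNA libraries 1 and 2 taken singly, while the difference between those 2 libraries had a rho of 0.031 with length over all tested genes. The median transcript was 3718 bases among the members, against 2963 bases among tested genes. Of the 15 members of 5000 bases or more, 8 rose (53.3%, against 42.1% of tested genes that long) and none fell (against 3.51%). Of the 27 shorter members, 3 rose (11.1%, against 10.2% of shorter tested genes) and 2 fell (7.41%, against 17.2%). The 3 short genes that rose were XRCC2, BARD1 and CHEK1. The division at 5000 bases was chosen after the values were seen.

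**Figure D3:**
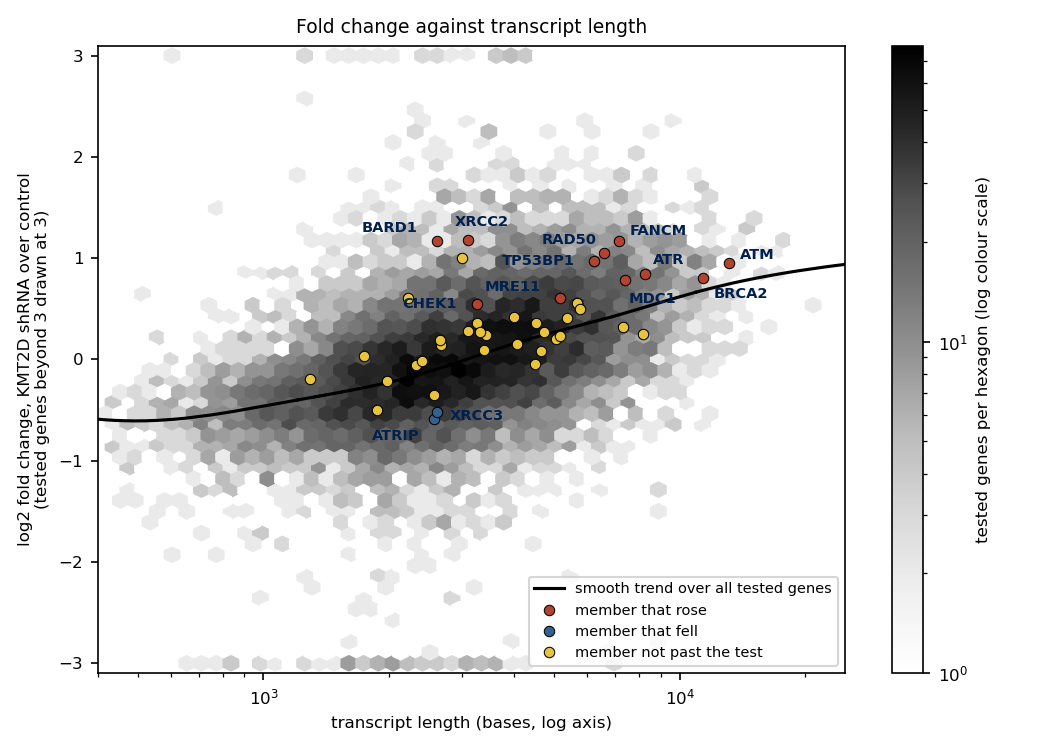
The plot shows log2 fold change of KMT2D shRNA over control against transcript length in bases, on a log axis from 400 to 25000. The 42 repair genes are points, and the other tested genes are hexagons shaded by the number of genes. A line gives the smooth trend over all tested genes. In all, 39 tested genes lie outside the axis, and values of tested genes beyond 3 are drawn at 3. Of the 11 repair genes that rose, 8 are 5000 bases or longer, with ATM and BRCA2 near the trend of all genes. XRCC2 and BARD1 stand above most genes of their own length.

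Set against the 200 tested genes nearest in length, 31 members lay above the median of their neighbours and 11 below it. Among tested genes at large, about as many lie above such a median as below it by construction. The members' median difference was 0.15 on the log2 scale, and 0.14 and 0.16 in KMT2D shRNA libraries 1 and 2 taken singly. ATM, with a log2 fold change of 0.95, lay at percentile 56.5 of neighbours whose median was 0.82, and BRCA2, with 0.81, at percentile 56 of neighbours whose median was 0.73. Thus both genes were close to other transcripts of their length. ATR and MDC1 lay at percentiles 72.5 and 64.5, MRE11 at 70.5, TP53BP1 at 83.5, RAD50 at 87 and FANCM at 87.5. Percentile 90 was passed by 4 of the 42 members, BARD1 and XRCC2 at 96, FANCB at 94 and RAD51AP1 at 90.5. By construction about 10% of genes lie above percentile 90 of their neighbours, so this number is near that share. About 10% lie under percentile 10, where no member lay. ATRIP and XRCC3, which fell, lay at percentiles 16 and 18.

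With the trend on length removed before the same test, 4 members rose and none fell. These are 9.52% of the members higher, against 9.94% of all tested genes, and 0% lower, against 9.19%, so the share that rose was close to that of tested genes in general. The 4 were XRCC2 (log2 fold change 1.17 ± 0.22 SE, adjusted p = 9.27e-05 in edgeR), BARD1 (1.27, SE 0.41, adjusted p = 0.0229), FANCM (0.73, SE 0.24, adjusted p = 0.0234) and TP53BP1 (0.60, SE 0.18, adjusted p = 0.013). The same 4 passed when a trend on GC content was removed as well, with edgeR adjusted p-values of 0.00027 for XRCC2, 0.0437 for BARD1, 0.0437 for FANCM and 0.0197 for TP53BP1, against a share of tested genes of 9.46% that rose and 8.34% that fell. ATM, the longest member at 13147 bases, was left with a log2 fold change of 0.20 (edgeR adjusted p = 0.475) and BRCA2 with 0.13 (adjusted p = 0.816). RAD50 kept 0.65 and missed the threshold (adjusted p = 0.059), as did RAD51AP1 at 0.78 (adjusted p = 0.0525) and CHEK1 at 0.51 (adjusted p = 0.0837). The median log2 fold change of the members was 0.18 on this scale, and rho with length was 0.05.

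**Figure D4:**
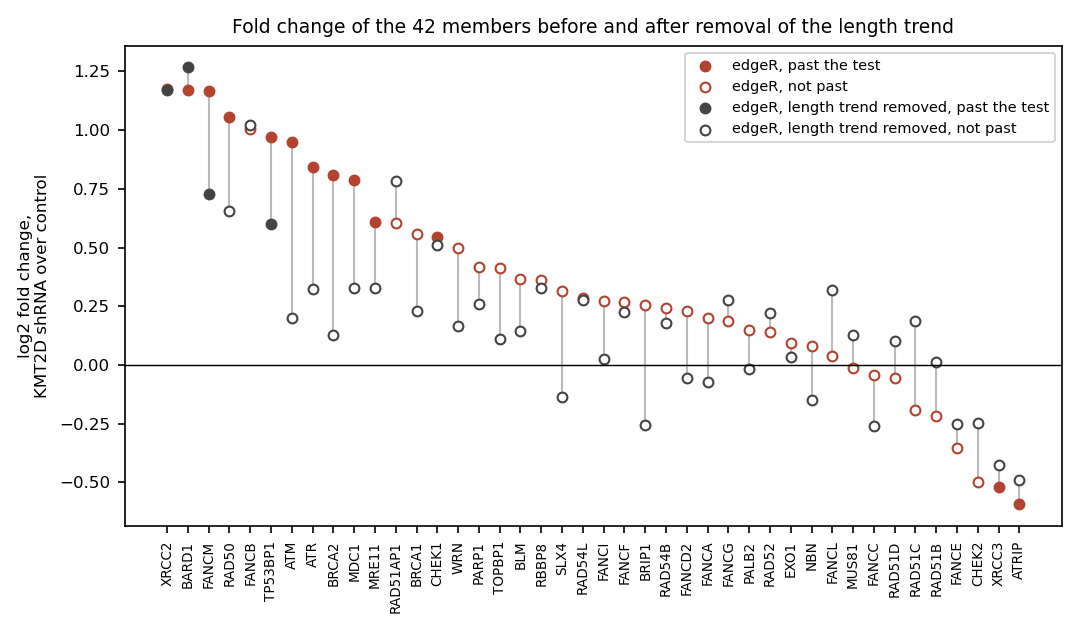
The plot shows the log2 fold change, KMT2D shRNA over control, of the 42 repair genes, ranked along the horizontal axis. For each gene a line joins the values before and after removal of the trend on transcript length. Filled points are past the test. XRCC2 stays at 1.17 and BARD1 moves up from 1.17 to 1.27. FANCM and TP53BP1 move down to 0.73 and 0.60, and ATM moves to 0.20.

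A further 83 genes that work beside the members were read from function lists, of which 82 were tested. In these, 10 rose and 11 fell (12.2% and 13.4%, against 16.5% and 14.5% of tested genes), with a median log2 fold change of 0.04. With the length trend removed, 2 rose (2.44%, against 9.94%) and 6 fell (7.32%, against 9.19%). The 2 were MCM8 and PRKDC, and the 6 were RAD9A, ZSWIM7, RTEL1, MMS22L, EME1 and RECQL5. SLX1A and SLX1B, near-identical copies of a crosslink nuclease with the same values, both count among those that fell (log2 fold change -0.76, edgeR adjusted p = 0.00581) and cannot be told apart.

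In the chromatin response to breaks, RIF1, the effector of TP53BP1, also rose (log2 fold change 0.67, edgeR adjusted p = 0.00526), and so did PAXIP1 (0.60, adjusted p = 0.0366). BABAM1, a subunit of the BRCA1-A complex, fell (-0.48, adjusted p = 0.0295), and the other 12 of the 15 genes did not pass. The share that rose was 13.3% and the share that fell 6.67%, against 16.5% and 14.5% of tested genes. RIF1 is a transcript of 9855 bases and had a log2 fold change of 0.06 with the length trend removed. Among 26 helpers of resection and strand exchange, MCM8, a helicase of recombination, was at 38.2 and 42.2 CPM in the KMT2D shRNA libraries and at 22.5 CPM in the control. It rose (log2 fold change 0.83 ± 0.22 SE, adjusted p = 0.00245 in edgeR) and passed with the length trend removed as well (0.72, adjusted p = 0.0131). RPA1, a subunit of the protein that coats single-stranded DNA, rose at 0.52 (edgeR adjusted p = 0.0225). RAD9A, a subunit of the checkpoint clamp that activates ATR, was at 47.0 and 45.1 CPM in the KMT2D shRNA libraries and at 85.7 CPM in the control. It fell both before (log2 fold change -0.90 ± 0.18 SE, adjusted p = 9.31e-05 in edgeR) and after the length trend was removed (-0.69, adjusted p = 0.00386). ZSWIM7, a strand exchange helper, fell by 1.05 ± 0.27 in log2 units (SE, adjusted p = 0.00278 in edgeR). SEM1, a small partner of BRCA2, fell by 0.61 (edgeR adjusted p = 0.0188). Of the 26 helpers, 2 rose (7.69%, against 16.5% of tested genes) and 3 fell (11.5%, against 14.5%).

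Of 20 tested crosslink repair partners, 3 rose (15%, against 16.5% of tested genes) and 4 fell (20%, against 14.5%). REV3L, the catalytic subunit of a translesion polymerase, the nuclease DCLRE1A and the nuclease FAN1 rose by log2 fold changes of 0.79, 1.01 and 0.54, and none of them passed with the length trend removed. EME1, the partner of MUS81, and FAAP20, a core complex subunit, each fell by 0.64 on the log2 scale (edgeR adjusted p = 0.00381 and 0.00282). Among 6 dissolution genes RECQL rose (0.55, edgeR adjusted p = 0.0253) and RECQL5 fell (-0.45, adjusted p = 0.0445). Each is 16.7% of the 6, against 16.5% of tested genes that rose and 14.5% that fell. In end joining, the competing route, 2 of 15 genes rose (13.3%, against 16.5%) and 2 fell (13.3%, against 14.5%). PRKDC, the catalytic subunit of the DNA-dependent protein kinase and of the same kinase family as ATM and ATR, was at 420 and 404 CPM in the KMT2D shRNA libraries and at 101.4 CPM in the control. Its log2 fold change was 2.02 ± 0.19 (SE, adjusted p = 2.58e-12 in edgeR), and 1.27 with the length trend removed (adjusted p = 3.65e-07). At 13503 bases PRKDC is close in length to ATM, but lay at percentile 96.5 of genes of its length, against 56.5 for ATM. XRCC5 (Ku80) rose at 0.45 (edgeR adjusted p = 0.0358), while PAXX and POLL fell at -0.81 and -0.73 (adjusted p = 0.00373 and 0.0192).

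Of the 13 members called, XRCC2 and TP53BP1 passed under all 7 of the other count-based settings, and FANCM under 6. ATM and MDC1 passed under 5, RAD50 and ATR under 4, BARD1 under 3 and ATRIP under 2. MRE11, CHEK1, BRCA2 and XRCC3 passed under 1, and all 4 had adjusted p-values between 0.03 and 0.05 in the test reported here. BARD1 and BRCA2 had no adjusted p in 1 of the 7 settings, DESeq2's Wald test, so they could not pass there. DESeq2's Wald test, which gave an adjusted p for 28 of the members, called 4 higher (14.3%, against 7.99% of the 9054 genes with such a value) and none lower (against 5.03%): ATM, MDC1, TP53BP1 and XRCC2. Limma on the authors' FPKM called no member under any of 3 pseudocount and filter settings. With a pseudocount of 0.1 and the filter, 13 members had an unadjusted p under 0.05, beside 3880 of 14537 genes. With a pseudocount of 1 and the filter it was 12 members, beside 4189 of 14537 genes. With a pseudocount of 0.1 and no filter it was 13 members, beside 4583 of 18331 genes.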

How the data were processed

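Per the labels' protocols, polyadenylated RNA was fragmented, copied with random primers and sequenced on a BGISEQ-500. No strand-marking step is stated. HISAT, Bowtie2 and hg19 are named per the submitters' processing notes, with roles and versions not given in the sources used here. Per the file headers, the authors deposited for each library the transcript length in bases, an expected count (estimated reads, not normalized) and the FPKM, which is scaled by length and library total. A gene missing from a table was taken as 0.

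Symbols came from a RefSeq table (GRCh38.p14), which matched 99.39% of 18331 identifiers. Expected counts were rounded and tested in edgeR 4.0.16 (R 4.3.3) with filterByExpr, TMM and a group term, leaving 1 residual degree of freedom. CPM uses TMM-scaled totals, and 3 reads are 0.582 and 0.586 CPM in the KMT2D shRNA libraries and 0.540 CPM in the control. Intervals come from the split of 2 counts and hold no spread between libraries, so they cover counting error only. Reads without molecular identifiers are not independent molecules, so counting error itself may be larger than the intervals show. KMT2D shRNA libraries 1 and 2 had a mean chi-square of 5.31 over genes, more than sampling noise gives, so they were not taken as 1 library deposited again and count as 2 samples. This does not show that they are independent cultures. The length trend was a smooth curve (mgcv 1.9.3) entered as an offset in the control. Some items are not reported here.

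The members, the gene lists and the rule for genes named (members past the test, 7 members in any case, and up to 6 genes each way per list) were chosen with earlier results of these data known. Settings varied were scaling, filter, length and GC trends, neighbours, DESeq2 1.42.0, limma 3.58.1 on log2 FPKM, and each KMT2D shRNA library left out.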

Additional observations from a re-analysis of the deposited data

How the results depend on the processing

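Members that rose numbered 11, and 7 with library totals, with no filter on low counts or with a mean of 5 CPM or more, 4 with the length trend removed, with length and GC trends removed or in DESeq2, and 0 in limma on FPKM under each of 3 pseudocount and filter settings. Members that fell numbered 2, and 1 with a mean of 5 CPM or more and 0 under each of the other settings just named. Over all tested genes, 2319 rose, and 1849 with library totals, 1048 with no filter and 1960 with a mean of 5 CPM or more. It was 1393 with the length trend removed, 1310 with length and GC removed and 723 in DESeq2. All tested genes that fell numbered 2031, and in the same order 1396, 849, 1682, 1288, 1154 and 455. The number of genes tested differs with the filter. With DESeq2's size factors all 13 calls were kept and BRCA1 was added (edgeR adjusted p = 0.0499). Other pathway genes that rose numbered 10, and 5 with library totals, 2 with no filter, with the length trend removed or with length and GC removed, 1 in DESeq2 and 0 in limma. Those that fell numbered 11, and 7 with library totals, 2 with no filter, 6 with the length trend removed, 5 with length and GC removed, 1 in DESeq2 and 0 in limma. Limma called 98 genes of the whole table with a pseudocount of 0.1 and the filter and 0 under the other 2 settings, where 4189 and 4583 genes had an unadjusted p under 0.05.

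The members' median log2 fold change of 0.28 was 0.18 with the length trend removed, 0.12 with length and GC removed, 0.24 in limma with a pseudocount of 1, and 0.26 to 0.31 with each KMT2D shRNA library left out. The median difference from genes of similar length was 0.18 with 50 neighbours and 0.14 to 0.16 with a library left out. KMT2D had log2 fold changes of -0.58 and -0.43 with length, and length and GC, removed, against 0.29, and of 0.10 to 0.46 with a library left out; the cause was not tested.

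Signs changed in members that were past no test. With the length trend removed the log2 fold changes were -0.15 for NBN, -0.016 for PALB2, -0.26 for BRIP1, 0.014 for RAD51B, 0.19 for RAD51C, 0.10 for RAD51D, -0.073 for FANCA, -0.053 for FANCD2, -0.13 for SLX4 and 0.13 for MUS81. With length and GC removed they were -0.24 for NBN, -0.061 for EXO1, -0.10 for PALB2, -0.33 for BRIP1, 0.057 for RAD51C, 0.12 for RAD51D, -0.0033 for FANCA, -0.12 for FANCD2, -0.044 for FANCI and 0.26 for MUS81. MUS81 was 0.0031 with library totals. In limma RAD51D was 0.010 with a pseudocount of 0.1 and 0.0078 with 1, and FANCC 0.026 and 0.020.

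Precision is limited by 1 control library and by depth: BARD1, FANCB, RAD51B, RAD51D and RAD52 had 18 to 55 reads per library. No paired analysis was possible because the group of controls holds 1 library with no replicate number.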
